A study of Mus musculus with 36 samples.

Results

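The messenger RNA of 5 genes was followed in 2 skeletal muscles of mice labelled as lacking estrogen-related receptors in muscle. The genes are Pax7, the transcription factor that marks satellite cells, the stem cells of muscle, and the 4 myogenic regulatory factors Myf5, Myod1, Myog (myogenin) and Myf6 (MRF4). They were chosen by name, with earlier results of these data known. All 5 are among the 17873 genes with a value in the deposited table. The muscles were the soleus, rich in slow oxidative fibres, and the extensor digitorum longus (EDL), rich in fast fibres. The estrogen-related receptors (ERRs) are orphan nuclear receptors that regulate oxidative metabolism. In each muscle, 3 deletion classes were profiled: an ERRalpha muscle knockout (mKO), an ERRbeta/ERRgamma double muscle knockout (dmKO) and an ERRalpha/ERRgamma dmKO, each against wild-type (WT) littermates. Each of the 12 groups holds 3 libraries, named library 1 to 3 in an order that carries no meaning, and the series design calls them biological replicates. All mice were males 1 year old on a C57BL/6JBom background, housed near 22 °C with a 12 h light period. The knockout-labelled groups carried floxed receptor genes, and so did the WT groups as the column marks were read. Cre recombinase came from the human alpha-skeletal actin promoter, which is active in differentiated fibres, so satellite cells are not its target. As the column marks were read, all knockout-labelled groups carry Cre and no WT group does, so Cre and the deletion cannot be told apart. Groups are called knockout-labelled because the labels do not spell out the marks FXp and FX- in the column names, read here as floxed with and without Cre.

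Satellite cells lie between a fibre and its basal lamina, rest in adult muscle and divide when the fibre is injured. Pax7 keeps them as a lineage, Myf5 and Myod1 commit their daughters to the muscle fate, and Myog and Myf6 act as those daughters differentiate and fuse. In adult muscle Myf6 is also expressed by the fibres themselves, and Myod1 and Myog are known from fibre nuclei as well, where Myod1 is typical of fast and Myog of slow oxidative muscle, and Myog increases on denervation. The 4 myogenic regulatory factors bind the E-box CANNTG as dimers with E proteins through a shared basic helix-loop-helix domain.

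The shared domain can be read in the messages themselves. The following 60 coding bases of the helix-loop-helix part, from the GENCODE M21 transcripts on GRCm38, are shown because they are where the 4 messages are most alike, and capitals mark the 43 bases that are the same in all 4.
Myog: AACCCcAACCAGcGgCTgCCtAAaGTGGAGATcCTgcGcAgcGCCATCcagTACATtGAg
Myf6: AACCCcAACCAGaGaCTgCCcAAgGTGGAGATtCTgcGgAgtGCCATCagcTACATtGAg
Myod1: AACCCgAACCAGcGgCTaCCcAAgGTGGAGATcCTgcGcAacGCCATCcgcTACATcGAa
Myf5: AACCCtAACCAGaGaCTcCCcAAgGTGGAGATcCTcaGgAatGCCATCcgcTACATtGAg

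The window covers coding bases 331 to 390 of Myog, 367 to 426 of Myf6, 415 to 474 of Myod1 and 337 to 396 of Myf5. Of its 60 bases, Myog shares 51 with Myod1, 50 with Myf6 and 47 with Myf5. Over the whole coding sequences, the longest identical run between any pair of the 4 is 26 bases, between Myod1 and Myf5. On GRCm38, Myog lies on chromosome 1 (134289989 to 134292548, plus strand) and Myod1 on chromosome 7 (46376474 to 46379099, plus strand). Myf6 (107492853 to 107494737) and Myf5 (107482908 to 107486134) are neighbours on the minus strand of chromosome 10, with 6718 bases between them, and Pax7 spans 139737062 to 139833528 on the minus strand of chromosome 4. The 4 myogenic regulatory factors have 3 exons each and Pax7 has up to 9.

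Myog was the member with the largest changes, and its promoter is shown for that reason, from 250 bases before to 50 after the start (chr1:134289754-134290053, plus strand, RefSeq on GRCm38.p6). Capitals mark 2 E-boxes (CANNTG), the MEF3 sequence TCAGGTTTC, and CTATATTTAT, a match to an A/T-rich MEF2-type motif.
Myog promoter: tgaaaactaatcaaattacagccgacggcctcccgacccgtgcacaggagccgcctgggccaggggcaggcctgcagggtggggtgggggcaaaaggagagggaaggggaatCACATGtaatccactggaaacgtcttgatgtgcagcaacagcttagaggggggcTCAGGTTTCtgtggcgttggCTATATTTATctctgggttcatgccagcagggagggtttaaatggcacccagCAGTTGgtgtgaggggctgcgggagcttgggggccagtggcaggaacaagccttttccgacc

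Both strands were searched, with no overlap between the marked matches. The E-boxes begin at -138 and -12 relative to the start, the MEF3 sequence at -84 and CTATATTTAT at -64. Among 32851 promoters of the same length, 72.3% hold an E-box, 0.429% the MEF3 sequence and 7.66% the MEF2-type motif, whose letters were loosened so as to take in the sequence of the Myog promoter. The ERR response element TNAAGGTCA, present in 1.28% of all promoters, has no match in the windows of Myog, Myf5 or Pax7, the 3 of 5 members with an entry, and TATAAA (13.6% of all promoters) has 1, at 20 bases after the start of Myf5. Myod1 and Myf6 have no entry. A match describes letters only.

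The libraries differed in ways that touch these genes. Between 13667 and 14951 genes were detected per library, which is the nearest measure of depth left after quantile normalisation. In the ERRalpha/ERRgamma class more genes were detected in knockout-labelled than in WT libraries, 14379 to 14835 against 14033 to 14376 in EDL and 14751 to 14951 against 14316 to 14624 in soleus. All 8 muscle fibre markers had a value in every group, and their sums are given with those of the other cell types. Of the receptor genes, Esrra (ERRalpha) was at 3.19, 2.90 and 3.20 in knockout-labelled EDL of the ERRalpha/ERRgamma class, against 5.38, 5.33 and 5.26 in WT EDL. Its change in soleus of that class was -0.57 ± 0.12, and in the ERRalpha class its change was -0.19 ± 0.12 in EDL and 0.33 ± 0.12 in soleus. Esrrg (ERRgamma) was called higher in 4 comparisons. Its change was 1.09 ± 0.15 in ERRbeta/ERRgamma soleus, 1.21 ± 0.15 in ERRalpha/ERRgamma soleus, 0.51 ± 0.15 in ERRalpha/ERRgamma EDL and 0.61 ± 0.15 in ERRalpha EDL. Esrrb (ERRbeta) had changes of -0.18 ± 0.21 in EDL and 0.28 ± 0.21 in soleus of the ERRbeta/ERRgamma class, neither called, and was called lower in EDL of the ERRalpha/ERRgamma class (-1.60 ± 0.21). Whole-gene signals do not separate the floxed part from the rest of a transcript, so where a deleted receptor is not lower these values do not check the labels. The ERRbeta/ERRgamma soleus libraries were uneven in immune markers: the summed leukocyte markers were 233, 21.4 and 62.0 in the knockout-labelled libraries and 16.4, 58.0 and 21.2 in the WT libraries. Of all genes, 897 were called in that comparison, 396 without knockout-labelled library 1, 2139 without knockout-labelled library 2 and 440 without WT library 3.

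All values here are log2 signals, and all changes are differences of log2 group means. Changes are given ± SE with n = 3 libraries per group, from limma over all 36 libraries. The threshold for a call was a p under 0.05 after Benjamini-Hochberg adjustment over all genes tested in that comparison. The members all had a value in 36 of 36 libraries. Over the 36 libraries the log2 signal of Pax7 ran from -3.35 to 0.02 (median -1.29) and that of Myf5 from -2.69 to 0.44 (median -0.76). Myod1 ran from 0.80 to 3.82 (median 2.63), Myog from -1.63 to 2.97 (median 0.97) and Myf6 from 5.23 to 6.92 (median 5.86). The spread between libraries of a group was smallest for Myf6, with a pooled SD of 0.214, and was 0.471 for Myod1, 0.488 for Pax7, 0.560 for Myog and 0.609 for Myf5. The scaling of signals to transcript length is not given, so levels are compared within a gene only. In whole muscle, fewer cells of a type and less RNA per cell cannot be told apart.

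**Figure D1:**
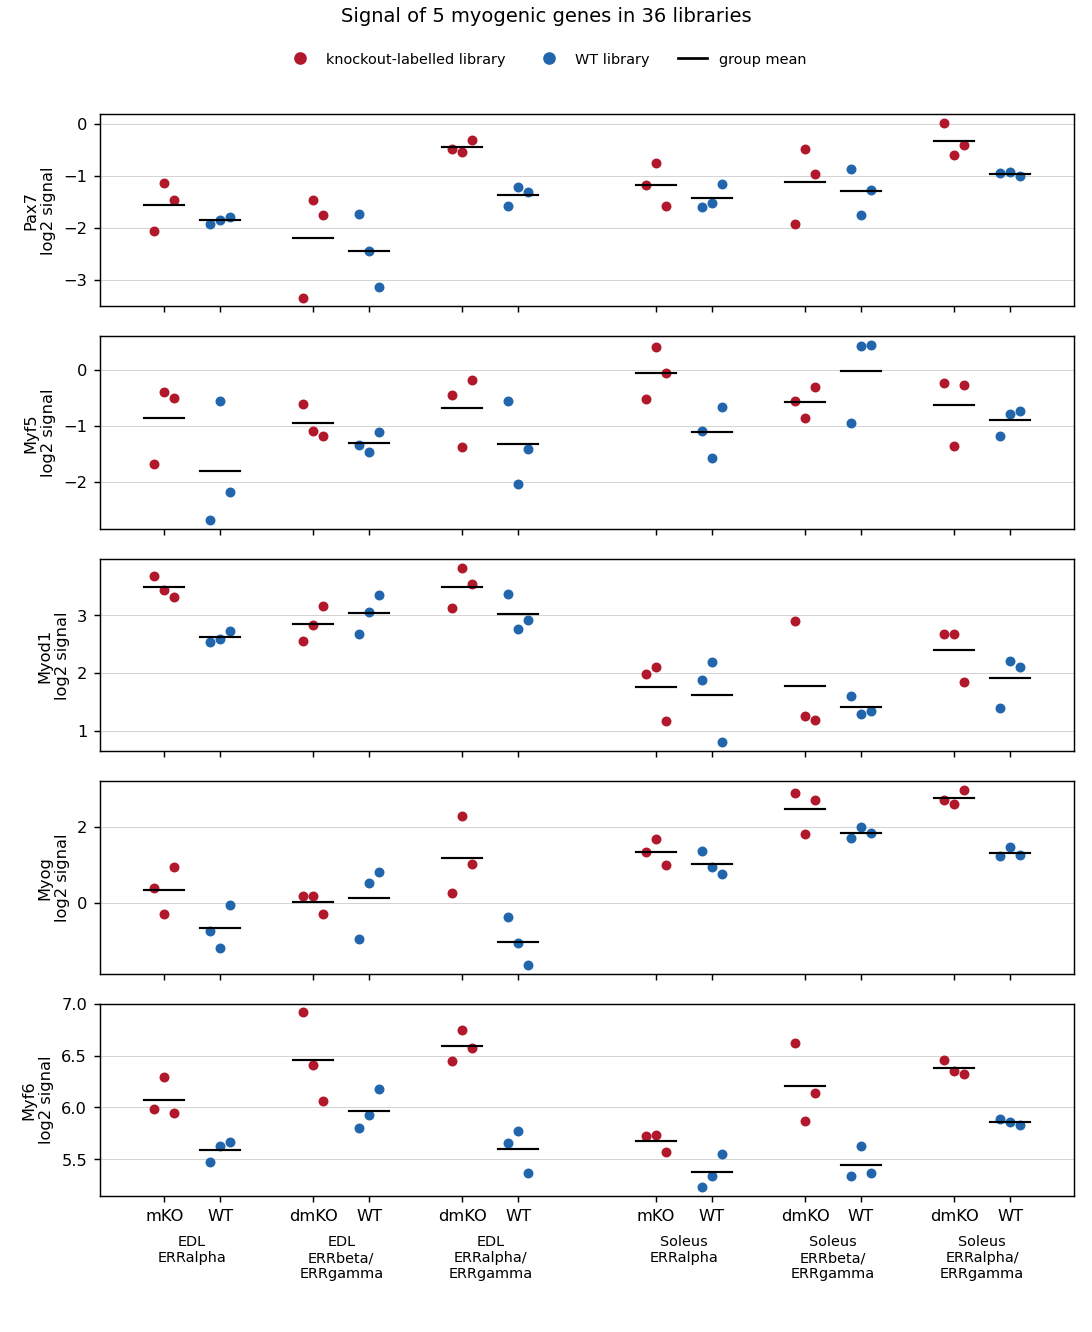
Log2 signal of each member (vertical axes) in the 3 libraries of every group, knockout-labelled groups to the left of their WT littermates, with EDL and soleus apart; points are libraries and bars are group means. Myod1 lies higher in EDL and Myog higher in soleus, and Myf6 is higher in every knockout-labelled library than in any WT library in 5 of the 6 pairs of groups. Depending on the pair, 7.54% to 27.4% of all genes with a value in every library showed this order.

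The first question is how these genes differ between the muscles with the receptors intact. Compared over the 9 WT libraries of each muscle, 4 of the 5 members differed between soleus and EDL, where 54.4% of all genes tested were called. Some animals gave both muscles, and the fit took their libraries as separate samples. Myog, Myf5 and Pax7 were higher in soleus (30.8% of all genes were called higher) and Myod1 was lower (23.6% were called lower). In WT soleus Myog ran from 0.77 to 1.99 with a median of 1.36, and in WT EDL from -1.63 to 0.82 with a median of -0.73. The muscles met only at the edge of their ranges, and the difference was 1.92 ± 0.25, or 3.78-fold (limma, Benjamini-Hochberg adjusted p = 1.35e-07). In WT soleus Myod1 ran from 0.80 to 2.21 with a median of 1.60, and in WT EDL from 2.54 to 3.36 with a median of 2.76. These ranges did not overlap, and the difference was -1.24 ± 0.21 (adjusted p = 8.73e-06).

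The satellite cell gene Pax7 ran from -1.76 to -0.87 in WT soleus (median -1.15) and from -3.14 to -1.22 in WT EDL (median -1.80), a difference of 0.66 ± 0.23 (limma, Benjamini-Hochberg adjusted p = 0.0158). Myf5, the other early gene, ran from -1.57 to 0.44 in WT soleus (median -0.79) and from -2.69 to -0.55 in WT EDL (median -1.41), a difference of 0.81 ± 0.27 (adjusted p = 0.0141). Both pairs of ranges overlapped. Myf6 ran from 5.23 to 5.89 in WT soleus (median 5.55) and from 5.37 to 6.18 in WT EDL (median 5.67), and its difference of -0.16 ± 0.095 was not called (adjusted p = 0.157). Recentred on each library's median it was -0.22 and called (adjusted p = 0.0398).

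Within classes of WT animals the sign of the difference varied for Myf6 and for no other member. Myf6 was lower in WT soleus than in WT EDL in the ERRalpha class (-0.21) and the ERRbeta/ERRgamma class (-0.53), and in the ERRalpha/ERRgamma class all 3 WT soleus libraries lay above the WT EDL libraries (0.26). Myog was higher in WT soleus by 1.69, 1.72 and 2.34 in the 3 classes, and higher in knockout-labelled soleus than in knockout-labelled EDL by 1.00, 2.43 and 1.58, with no overlap between muscles in any of the 6 pairs of groups. Among the 14 animals that gave both muscles, knockout-labelled and WT together, soleus was the higher muscle for Myog in 14 and the lower muscle for Myod1 in 13. For Pax7 and Myf5 soleus was higher in 12 of these 14 animals, and for Myf6 it was lower in 12. The share of all genes with such orders between muscles, by group or by animal, was not computed. Between the WT muscles 54.4% of all genes tested were called. The median difference per animal was 1.97 for Myog, -1.63 for Myod1, 0.84 for Myf5, 0.67 for Pax7 and -0.29 for Myf6.

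**Figure D2:**
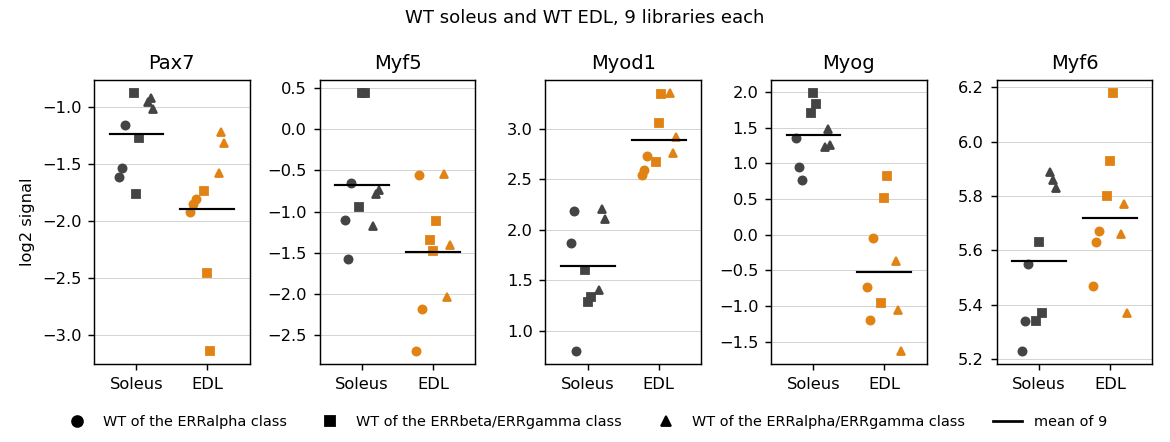
Log2 signal of each member in the 9 WT soleus libraries and the 9 WT EDL libraries (horizontal groups; vertical axes are log2 signals; points are libraries and bars are means). Soleus lies above EDL for Myog, with medians of 1.36 and -0.73, and below it for Myod1, with medians of 1.60 and 2.76.

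The second question is what happens to these genes when the receptors are deleted. Myog and Myf6 rose in the ERRalpha/ERRgamma knockout-labelled muscles and Myf6 also in soleus of the ERRbeta/ERRgamma class. No change of Pax7, Myf5 or Myod1 was called in any class, and no member was called lower. In EDL of the ERRalpha/ERRgamma class 2 of the 5 members were called, where 18.1% of all genes were called and 11.1% called higher. In soleus of that class 2 of 5 were called, where 12.7% of all genes were called and 6.84% called higher. In soleus of the ERRbeta/ERRgamma class 1 of 5 was called, where 6.71% of all genes were called and 3.16% called higher.

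In the ERRalpha class no member was called in EDL (3 of 5 had an unadjusted p under 0.05, and 3.28% of all genes were called) or in soleus (1 of 5, and 0.71% of all genes). Neither was any called in ERRbeta/ERRgamma EDL (1 of 5 had an unadjusted p under 0.05, and 0.218% of all genes were called). The median change of the 5 members was 0.92 in EDL of the ERRalpha/ERRgamma class, 0.24 in EDL of the ERRbeta/ERRgamma class and 0.86 in EDL of the ERRalpha class. In soleus it was 0.52, 0.37 and 0.30 in the same order of classes. The median over all genes tested was 0.125, 0.0340 and 0.0177 in EDL and 0.114, 0.0527 and -0.0215 in soleus. Because the median of all genes shifted by more than 0.1 in the ERRalpha/ERRgamma class, changes recentred on each library's median are given there as well.

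**Figure D3:**
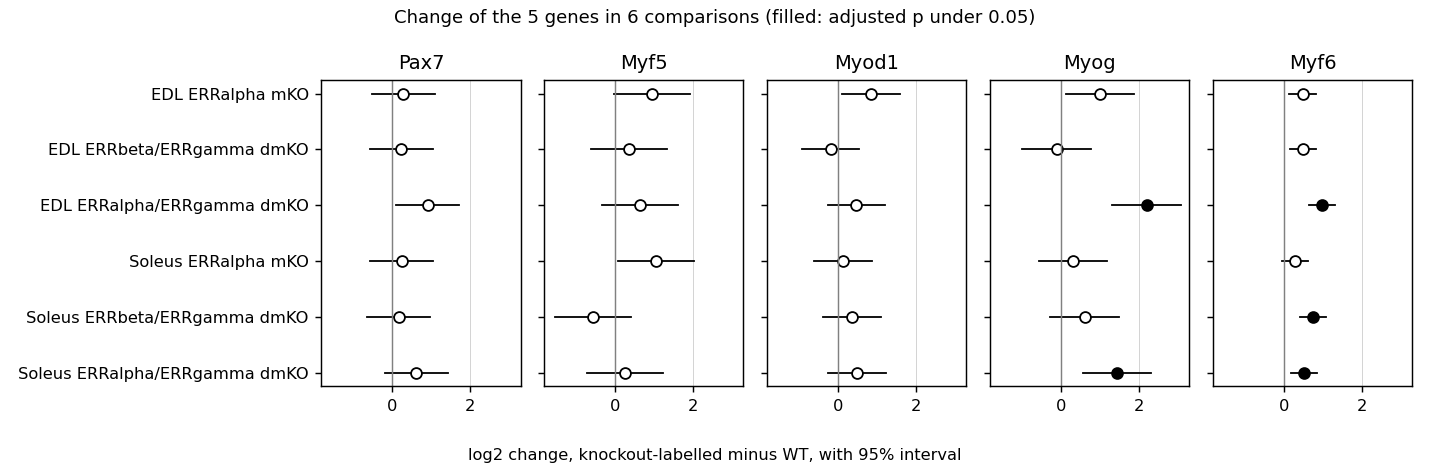
Change of each member in the 6 comparisons (horizontal axis: knockout-labelled minus WT, log2), with 95% confidence intervals as bars and filled points for changes called at an adjusted p under 0.05. The called changes are those of Myog and Myf6 in EDL (2.20 and 0.99) and soleus (1.44 and 0.52) of the ERRalpha/ERRgamma class and of Myf6 in soleus of the ERRbeta/ERRgamma class (0.76).

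Pax7, the satellite cell factor, had its highest group means in the ERRalpha/ERRgamma knockout-labelled muscles, but no change of it was called. In EDL of that class it was at -0.49, -0.55 and -0.31 in the knockout-labelled libraries and at -1.58, -1.22 and -1.31 in the WT libraries. All 3 knockout-labelled libraries lay above all 3 WT libraries, which held for 27.4% of all genes with a value in every library, and the change was 0.92 ± 0.39 (limma, Benjamini-Hochberg adjusted p = 0.112). In the fit on these 6 libraries alone the same change was called (adjusted p = 0.031).

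Pax7 in soleus of the ERRalpha/ERRgamma class was at 0.02, -0.60 and -0.40 in knockout-labelled libraries and at -0.95, -0.92 and -1.01 in WT libraries. The libraries again did not overlap, as for 21.8% of all genes, and the change was 0.64 ± 0.39 (limma, Benjamini-Hochberg adjusted p = 0.338). In the other classes the libraries overlapped. In EDL Pax7 was at -3.35, -1.47 and -1.76 in knockout-labelled libraries of the ERRbeta/ERRgamma class, against -1.73, -2.45 and -3.14 in WT, and at -2.06, -1.14 and -1.47 in knockout-labelled libraries of the ERRalpha class, against -1.92, -1.85 and -1.80 in WT. In soleus it was at -1.92, -0.49 and -0.96 in knockout-labelled libraries of the ERRbeta/ERRgamma class, against -0.87, -1.76 and -1.27 in WT, and at -1.17, -0.76 and -1.58 in knockout-labelled libraries of the ERRalpha class, against -1.61, -1.53 and -1.15 in WT. These 4 changes were between 0.18 and 0.30, with an SE of 0.39 each.

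Ordered over the 12 groups, the mean of Pax7 was -0.32 in knockout-labelled soleus and -0.45 in knockout-labelled EDL of the ERRalpha/ERRgamma class, and their ranges overlapped. The next group was WT soleus of that class at -0.96, whose range did not reach that of the group above it. The other 9 steps of this order were between groups whose ranges overlapped, down to -2.44 in WT EDL of the ERRbeta/ERRgamma class. The summed level of the 6 satellite cell markers Pax7, Myf5, Cdh15, Calcr, Vcam1 and Chodl, on the linear scale, was 10.99 to 13.8 in knockout-labelled EDL of the ERRalpha/ERRgamma class, against 7.77 to 9.88 in WT EDL, and 10.1 to 11.3 in knockout-labelled soleus against 9.18 to 9.78 in WT soleus. Of the 6 markers, 1 was called higher in that EDL comparison and none in that soleus comparison. The sum was also higher without overlap in EDL of the other classes. There it was 7.88 to 8.60 against 7.56 to 7.71 in the ERRalpha class and 7.36 to 7.85 against 6.41 to 7.20 in the ERRbeta/ERRgamma class. In soleus it overlapped, at 9.93 to 13.4 against 9.39 to 10.3 in the ERRbeta/ERRgamma class and 8.03 to 9.42 against 6.94 to 10.2 in the ERRalpha class. The part of detected-gene number in these differences was not tested.

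Myf5, which with Myod1 commits cells to the muscle fate, varied more within groups than any other member. In soleus of the ERRalpha class it was at -0.52, 0.40 and -0.05 in knockout-labelled libraries and at -1.10, -1.57 and -0.66 in WT libraries. The groups did not overlap, as for 7.54% of all genes in that comparison, and the change of 1.05 ± 0.48 was not called (limma, Benjamini-Hochberg adjusted p = 0.421). The ERRbeta/ERRgamma soleus showed the opposite order, with -0.56, -0.87 and -0.31 in knockout-labelled libraries and -0.95, 0.43 and 0.44 in WT libraries, a change of -0.55 ± 0.48 (adjusted p = 0.537). These libraries overlapped.

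Myf5 in soleus of the ERRalpha/ERRgamma class was at -0.23, -1.37 and -0.28 in knockout-labelled libraries and at -1.18, -0.79 and -0.74 in WT libraries. In EDL of that class it was at -0.45, -1.39 and -0.19 in knockout-labelled libraries and at -0.55, -2.04 and -1.41 in WT libraries. In EDL it was at -0.61, -1.09 and -1.18 in knockout-labelled libraries of the ERRbeta/ERRgamma class, against -1.35, -1.48 and -1.11 in WT, and at -1.68, -0.40 and -0.50 in knockout-labelled libraries of the ERRalpha class, against -2.69, -0.56 and -2.18 in WT. All of these pairs overlapped, and the 4 changes ran from 0.28 to 0.96 with an SE of 0.48 each. Over the 12 groups every step in the order of Myf5 means was between overlapping groups.

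Myod1, the other commitment factor, had a lower mean in soleus than in EDL in every class, for knockout-labelled and WT libraries alike. Its soleus and EDL ranges overlapped only in the knockout-labelled ERRbeta/ERRgamma class. It showed no called change between genotypes. In EDL of the ERRalpha class it was at 3.68, 3.44 and 3.31 in knockout-labelled libraries and at 2.54, 2.59 and 2.73 in WT libraries. The groups did not overlap, as for 13.6% of all genes in that comparison, and the change was 0.86 ± 0.36 (limma, Benjamini-Hochberg adjusted p = 0.23). In the fit on these 6 libraries alone it was called (adjusted p = 0.0143). The ERRalpha/ERRgamma EDL had Myod1 at 3.12, 3.82 and 3.53 in knockout-labelled libraries and at 3.36, 2.76 and 2.92 in WT libraries, which overlapped.

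Myod1 in ERRbeta/ERRgamma EDL was at 2.56, 2.83 and 3.16 in knockout-labelled libraries and at 2.67, 3.06 and 3.35 in WT libraries. In soleus it was at 2.68, 2.67 and 1.84 in knockout-labelled libraries of the ERRalpha/ERRgamma class, against 1.40, 2.21 and 2.11 in WT, and at 1.98, 2.11 and 1.17 in knockout-labelled libraries of the ERRalpha class, against 1.87, 2.19 and 0.80 in WT. The ERRbeta/ERRgamma soleus had Myod1 at 2.90, 1.26 and 1.18 in knockout-labelled libraries and at 1.60, 1.29 and 1.34 in WT libraries. The value of 2.90 belongs to library 1, the library with the leukocyte sum of 233, and it is the highest of Myod1 in any soleus library. The 6 EDL group means, from 3.49 in knockout-labelled EDL of the ERRalpha/ERRgamma class to 2.62 in WT EDL of the ERRalpha class, all stood above the 6 soleus group means, which ran from 2.40 to 1.41. Within this order each group overlapped with the next.

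Myog, the differentiation factor that denervated fibres also induce, rose in both muscles of the ERRalpha/ERRgamma class. In EDL it was at 0.25, 2.28 and 1.02 in knockout-labelled libraries and at -0.37, -1.06 and -1.63 in WT libraries. The groups did not overlap, although library 2 of the knockout-labelled group stood well above the other two. The change was 2.20 ± 0.43 (95% confidence interval 1.32 to 3.08), or 4.60-fold (limma, Benjamini-Hochberg adjusted p = 0.000324), and 2.14 after recentring (adjusted p = 0.000393). It was called in each of the 12 alternatives tried, where it ran from 1.65 to 2.67.

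Myog in soleus of the ERRalpha/ERRgamma class was at 2.70, 2.61 and 2.97 in knockout-labelled libraries and at 1.23, 1.48 and 1.26 in WT libraries. The groups did not overlap and each was tight. The change was 1.44 ± 0.43 (95% confidence interval 0.56 to 2.32), or 2.71-fold (limma, Benjamini-Hochberg adjusted p = 0.0234), and 1.37 after recentring (adjusted p = 0.0313). Leaving out knockout-labelled library 1 or 3, or WT library 1 or 3, ended the call, with changes of 1.33 to 1.47 and adjusted p of 0.0571 to 0.0823.

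In the ERRbeta/ERRgamma class no change of Myog was called. In soleus it was at 2.88, 1.80 and 2.70 in knockout-labelled libraries and at 1.71, 1.99 and 1.83 in WT libraries, a change of 0.62 ± 0.43 (limma, Benjamini-Hochberg adjusted p = 0.428). Knockout-labelled library 2 lay among the WT libraries and the other two above them. In EDL it was at 0.18, 0.18 and -0.29 in knockout-labelled libraries and at -0.96, 0.51 and 0.82 in WT libraries, a change of -0.10 ± 0.43 (adjusted p = 0.993). In the ERRalpha class Myog was at 0.40, -0.29 and 0.93 in knockout-labelled EDL libraries, against -0.73, -1.20 and -0.05 in WT, a change of 1.01 ± 0.43 that was not called (adjusted p = 0.245). In soleus of that class it was at 1.35, 1.68 and 1.00 in knockout-labelled libraries and at 1.36, 0.95 and 0.77 in WT libraries, with overlap and a change of 0.31 ± 0.43 (adjusted p = 0.864).

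In the order of the groups, ERRalpha/ERRgamma knockout-labelled EDL, with a Myog mean of 1.18, stood among the WT soleus groups, which had means of 1.84, 1.32 and 1.03. The mean of 1.18 carries an SD of 1.03, and the range of this group overlapped with those of its neighbours in the order. The highest means of Myog were 2.76 in knockout-labelled soleus of the ERRalpha/ERRgamma class and 2.46 in knockout-labelled soleus of the ERRbeta/ERRgamma class, and the lowest was -1.02 in WT EDL of the ERRalpha/ERRgamma class.

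Myf6, the factor that adult fibres express, was the member that differed between genotypes in the most comparisons. In EDL of the ERRalpha/ERRgamma class it was at 6.45, 6.75 and 6.57 in knockout-labelled libraries and at 5.66, 5.77 and 5.37 in WT libraries. Every knockout-labelled library was above every WT library, and the change was 0.99 ± 0.16 (95% confidence interval 0.65 to 1.32), or 1.98-fold (limma, Benjamini-Hochberg adjusted p = 4.22e-05). After recentring it was 0.93 (adjusted p = 5.06e-05), and it was called in all 12 alternatives, where it ran from 0.87 to 1.07.

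Myf6 in soleus of the ERRalpha/ERRgamma class was at 6.46, 6.35 and 6.32 in knockout-labelled libraries and at 5.89, 5.86 and 5.83 in WT libraries. The groups were tight and did not overlap, and the change was 0.52 ± 0.16 (95% confidence interval 0.18 to 0.85), or 1.43-fold (limma, Benjamini-Hochberg adjusted p = 0.0355). This call is close to the threshold: after recentring the change was 0.45 and not called (adjusted p = 0.0647), and leaving out any 1 of the 6 libraries ended the call, with changes of 0.47 to 0.55.

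Myf6 in soleus of the ERRbeta/ERRgamma class was at 6.62, 5.87 and 6.14 in knockout-labelled libraries and at 5.34, 5.63 and 5.37 in WT libraries. The groups did not overlap, as for 9.18% of all genes in that comparison, and the change was 0.76 ± 0.16 (95% confidence interval 0.42 to 1.10), or 1.69-fold (limma, Benjamini-Hochberg adjusted p = 0.00428). The highest value came from library 1, in which the leukocyte sum was 233, and without this library the change was 0.56 and not called (adjusted p = 0.0617). Myf6 in EDL of that class was at 6.92, 6.41 and 6.06 in knockout-labelled libraries and at 5.80, 5.93 and 6.18 in WT libraries, where the lowest knockout-labelled library fell below the highest WT library. That change was 0.49 ± 0.16 (adjusted p = 0.369), and 10.1% of all genes had knockout-labelled libraries that were all above WT.

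In the ERRalpha class both muscles had knockout-labelled libraries above all WT libraries for Myf6, without a call. This order held for 13.6% of all genes with a value in every library in EDL and 7.54% in soleus. In EDL it was at 5.99, 6.29 and 5.95 in knockout-labelled libraries and at 5.47, 5.63 and 5.67 in WT libraries, a change of 0.49 ± 0.16 (limma, Benjamini-Hochberg adjusted p = 0.109). In soleus it was at 5.72, 5.73 and 5.57 in knockout-labelled libraries and at 5.23, 5.34 and 5.55 in WT libraries, a change of 0.30 ± 0.16 (adjusted p = 0.55). Across the 6 comparisons Myf6 was positive in 6, called in 3 and without overlap in 5. Myog was positive in 5, called in 2 and without overlap in 2. Depending on the comparison, 7.54% to 27.4% of all genes had knockout-labelled libraries that were all above WT. The 4 highest group means of Myf6 were those of the double knockout-labelled groups, at 6.59 and 6.46 in EDL and 6.38 and 6.21 in soleus, and the lowest was 5.38 in WT soleus of the ERRalpha class.

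Whether a change differs between muscles or classes was tested on the difference itself. In EDL the change of Myog in the ERRalpha/ERRgamma class exceeded that in the ERRbeta/ERRgamma class by 2.30 ± 0.61 (95% confidence interval 1.06 to 3.54; limma, Benjamini-Hochberg adjusted p = 0.0149). This was the only member difference called, and 6.87% of all genes were called in that contrast. It was not called in the fit on these 12 libraries alone (adjusted p = 0.0916), nor without knockout-labelled library 2 of the ERRalpha/ERRgamma class (1.75), WT library 3 of that class (2.00) or WT library 3 of the ERRbeta/ERRgamma class (1.95).

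The remaining differences of Myog had wide intervals and were not called. The change in the ERRalpha/ERRgamma class exceeded that in the ERRalpha class by 1.20 ± 0.61 in EDL (limma, Benjamini-Hochberg adjusted p = 0.381; 4.81% of all genes called) and by 1.12 ± 0.61 in soleus (adjusted p = 0.357; 4.77% called). In soleus it exceeded that in the ERRbeta/ERRgamma class by 0.82 ± 0.61 (adjusted p = 0.658; 1.2% called). Soleus minus EDL, the change of Myog differed by -0.76 ± 0.61 in the ERRalpha/ERRgamma class, 0.72 ± 0.61 in the ERRbeta/ERRgamma class and -0.69 ± 0.61 in the ERRalpha class. For Myf6 the change in soleus minus that in EDL was -0.47 ± 0.23 in the ERRalpha/ERRgamma class (adjusted p = 0.492). No member was called in these 3 contrasts between muscles, where 2.07%, 0.21% and 0.0151% of all genes were called.

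Other genes of the myogenic programme were described by lists. These lists were chosen with earlier results of these data known, so their counts are descriptions only. Among 18 partners of the myogenic factors, 5 rose and none fell in the ERRalpha/ERRgamma class in EDL, with a median change of 0.20, where 11.1% of all genes tested were called higher, and after recentring 3 rose. These included Carm1, a coactivating methyltransferase (0.55 ± 0.098), Mef2c (0.47 ± 0.10) and Mef2a (0.29 ± 0.072), both MEF2 factors, and Smyd1, a muscle methyltransferase (0.33 ± 0.067). In soleus of that class Mef2a (0.30 ± 0.072) and Smyd1 (0.23 ± 0.067) rose, 2 of 18 where 6.84% of all genes were called higher, with a list median of 0.22, and after recentring no partner was called. Among partners in ERRbeta/ERRgamma soleus Six4, a homeobox gene, fell by 0.60 ± 0.18 on the log2 scale, the 1 call of 18, where 6.71% of all genes were called. No partner was called in the other 3 comparisons. Of 17 inhibitors of the myogenic factors, Mdfic, of the I-mfa family, was the 1 called gene. It changed in EDL by -0.75 ± 0.18 in the ERRalpha class and by -0.65 ± 0.18 in the ERRalpha/ERRgamma class. Of all genes, 3.28% and 18.1% were called in these EDL comparisons.

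Of 23 other satellite cell genes tested, 6 rose and 1 fell in the ERRalpha/ERRgamma class in EDL, with a median change of 0.39, and 2 rose and 1 fell in soleus of that class, with a median of 0.10. Of all genes tested, 18.1% were called in this EDL comparison and 12.7% in this soleus comparison, so the soleus count is near the share of all genes. After recentring the counts were 5 and 1 in EDL and 1 and 1 in soleus. Hs6st2, a heparan sulfate sulfotransferase, was at 1.61, 1.34 and 1.92 in knockout-labelled EDL of this class, against -0.06, 0.05 and -0.12 in WT EDL, a change of 1.67 ± 0.29 (limma, Benjamini-Hochberg adjusted p = 7.77e-05). It also rose by 1.22 ± 0.29 in EDL of the ERRalpha class, the 1 call of this list there, where 3.28% of all genes were called. Peg3, an imprinted zinc finger gene, rose by 0.79 ± 0.25 in EDL and 0.92 ± 0.25 in soleus of the ERRalpha/ERRgamma class. Met, the receptor of hepatocyte growth factor, fell in both, with changes of -0.50 ± 0.18 and -0.63 ± 0.18.

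Itga7, an integrin of satellite cells and of fibres, was at 5.54, 4.28 and 4.53 in knockout-labelled soleus of the ERRbeta/ERRgamma class, against 3.94, 3.68 and 3.53 in WT soleus. That rise of 1.07 ± 0.18 was the 1 call among the satellite cell genes there (limma, Benjamini-Hochberg adjusted p = 0.000375). Of all genes, 6.71% were called in that comparison. The value of 5.54 is that of library 1, with the leukocyte sum of 233, and without it the change of Itga7 was 0.69 and still called. No satellite cell gene other than the members was called in EDL of the ERRbeta/ERRgamma class or in soleus of the ERRalpha class. Vcam1, an adhesion molecule of satellite cells and endothelium, rose by 0.83 ± 0.26 in EDL of the ERRalpha/ERRgamma class. Pax3 was below the low-value filter.

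Of 18 genes linked to denervation and to myogenin, 8 rose and 1 fell in ERRalpha/ERRgamma EDL (median change 0.65), where 18.1% of all genes were called, and 5 rose and 1 fell in soleus of that class (median 0.37), where 12.7% were called. After recentring the counts were 7 and 1 in EDL and 3 and 1 in soleus. In EDL of the ERRalpha class 3 rose and 1 fell (2 and 1 after recentring), where 3.28% of all genes were called. In EDL of the ERRbeta/ERRgamma class 1 fell, where 0.218% of all genes were called. In soleus of that class 1 rose and 2 fell, where 6.71% were called. None was called in soleus of the ERRalpha class. Chrnb1, the beta subunit of the muscle acetylcholine receptor, was at 5.18, 5.03 and 5.20 in knockout-labelled EDL of the ERRalpha/ERRgamma class, against 4.22, 3.88 and 3.99 in WT EDL. The groups were far apart, and the change was 1.11 ± 0.18 (limma, Benjamini-Hochberg adjusted p = 2.52e-05), with 0.72 ± 0.18 in soleus of that class and 0.84 ± 0.18 in EDL of the ERRalpha class.

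The alpha subunit gene Chrna1 rose by 0.67 ± 0.18 in EDL of the ERRalpha/ERRgamma class and fell in soleus of the ERRbeta/ERRgamma class (-0.61 ± 0.18). Sln, which encodes the calcium pump regulator sarcolipin, rose by 2.45 ± 0.62 in EDL and 2.70 ± 0.62 in soleus of the ERRalpha/ERRgamma class. Fbxo32, a ubiquitin ligase gene of muscle atrophy, rose by 0.92 ± 0.18 in EDL of that class and had a change of 0.05 ± 0.18 in its soleus. Cdkn1a, a cell cycle inhibitor, rose by 1.31 ± 0.35 in EDL of the ERRalpha class and 1.07 ± 0.35 in soleus of the ERRalpha/ERRgamma class. Ankrd1, a stretch-responsive gene, was at 7.91, 3.95 and 5.81 in knockout-labelled soleus of the ERRbeta/ERRgamma class, against 3.15, 3.31 and 2.20 in WT soleus, a rise of 3.00 ± 0.56. The highest value is again that of library 1, and without it the change of Ankrd1 was 1.99 and still called.

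The denervation gene that fell in both muscles of the ERRalpha/ERRgamma class was Dach2, a corepressor known as a repressor of Myog in innervated muscle. In EDL of the ERRalpha/ERRgamma class it was at -5.38 and -5.50 in knockout-labelled libraries, with no value in the third, and at -1.23, -1.45 and 0.40 in WT libraries. The ERRbeta/ERRgamma EDL had Dach2 at -3.13, -3.48 and -3.74 in knockout-labelled libraries and at 0.06, 0.04 and 0.16 in WT libraries. The ERRalpha EDL had it at -4.34 and -5.40 in knockout-labelled libraries, with no value in the third, and at -1.54, -1.06 and 0.03 in WT libraries. No knockout-labelled library reached a WT library in any of these comparisons. The changes were -4.68 ± 0.47, -3.54 ± 0.42 and -4.01 ± 0.47 in this order of classes, and all were called by limma with Benjamini-Hochberg adjustment. The missing library was dropped in the first and last fit, and these low values stand closer than those of WT to the lowest value of the table (-8.21). With a pseudocount of 0.1 the changes of Dach2 were -2.62, -2.60 and -2.43 in the same order, all called, and with missing values at the lowest value they were -5.61 and -5.12 in the ERRalpha/ERRgamma and ERRalpha classes.

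In soleus Dach2 was at -2.20, -1.59 and -0.58 in knockout-labelled libraries of the ERRalpha/ERRgamma class, against 2.04, 1.45 and 1.49 in WT. In the ERRbeta/ERRgamma class it was at -0.14, 0.73 and -0.19 in knockout-labelled libraries and at 2.25, 2.39 and 2.79 in WT libraries. In the ERRalpha class it was at 0.70, 0.75 and 0.40 in knockout-labelled libraries and at 2.18, 2.07 and 2.31 in WT libraries. These groups did not overlap either, and the share of all genes with knockout-labelled libraries all below WT was not computed. The changes were -3.11 ± 0.42, -2.34 ± 0.42 and -1.57 ± 0.42, of which the last was not called (limma, Benjamini-Hochberg adjusted p = 0.084). Dach2 was called lower in 5 of the 6 comparisons. Myog was positive in 5 and called higher in 2. In WT animals both genes were higher in soleus than in EDL, Dach2 by 2.62 ± 0.24. The part of Dach2 in the changes of Myog was not tested.

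Of 9 fusion and developmental genes tested, 3 rose and 1 fell in ERRalpha/ERRgamma soleus, with a median change of 0.37, where 12.7% of all genes were called. In soleus of the ERRbeta/ERRgamma class, where 6.71% of all genes were called, 2 rose and 1 fell, and none was called in EDL of any class or in soleus of the ERRalpha class. Myh3, the embryonic myosin heavy chain, was at 5.90, 5.02 and 4.22 in knockout-labelled soleus of the ERRalpha/ERRgamma class, against 2.27, 2.65 and 2.22 in WT soleus. The groups were apart, with a change of 2.66 ± 0.54 (limma, Benjamini-Hochberg adjusted p = 0.000839). In soleus of the ERRbeta/ERRgamma class its change was 2.18 ± 0.54 (adjusted p = 0.0117). Myh8, the perinatal myosin heavy chain, was at 2.66, 2.80 and 3.19 in knockout-labelled soleus of the ERRalpha/ERRgamma class, against -1.34, -0.58 and -0.32 in WT soleus. Its change of 3.63 ± 0.56 was called (adjusted p = 2.69e-05), and in soleus of the ERRbeta/ERRgamma class it was -0.53 ± 0.56 and not called.

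In both of these soleus comparisons Myl6b, an alkali light chain, rose (1.15 ± 0.31 in the ERRalpha/ERRgamma class and 1.39 ± 0.31 in the ERRbeta/ERRgamma class). Jam3, an adhesion molecule, fell in both (-1.02 ± 0.20 and -1.05 ± 0.20). The fusion genes Mymk and Mymx were not tested. Of 15 cell cycle genes tested in these comparisons, 2 rose in soleus of the ERRalpha/ERRgamma class (median 0.18), 1 in EDL of that class (median 0.34) and 1 in soleus of the ERRbeta/ERRgamma class (median 0.91), and none fell. Of all genes tested, 12.7%, 18.1% and 6.71% were called in these comparisons, in the same order. The cell cycle counts are near or below these shares. The called genes were Aurka, a mitotic kinase (in the ERRalpha/ERRgamma class, 1.87 ± 0.45 in soleus and 1.34 ± 0.45 in EDL), and Mcm2, a replication helicase subunit (0.82 ± 0.27 in soleus of the ERRalpha/ERRgamma class and 0.98 ± 0.27 in soleus of the ERRbeta/ERRgamma class). After recentring 1 remained called in soleus of the ERRalpha/ERRgamma class and 0 in its EDL. Cdk1, Ccnb1, Cenpf, Bub1 and Aurkb were below the low-value filter.

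Of 39 called changes among the list genes (at most the 3 with the lowest p per list and comparison), 16 were called in each of their 12 alternatives. These were Dach2 in EDL of all classes and in ERRalpha/ERRgamma soleus, Chrnb1 in ERRalpha and ERRalpha/ERRgamma EDL, and in ERRalpha/ERRgamma EDL also Carm1, Smyd1, Mef2c, Hs6st2 and Fbxo32. In ERRalpha/ERRgamma soleus they were Sln, Myh8, Myh3, Jam3 and Aurka. Leaving out a single library ended the calls of Mdfic, Peg3 and Mcm2 in both comparisons recomputed, of Hs6st2 and Cdkn1a in ERRalpha EDL, and of Vcam1 (0.55 without knockout-labelled library 3) and Aurka in ERRalpha/ERRgamma EDL. The same was true of Smyd1, Met, Itga7 and Chrnb1 in ERRalpha/ERRgamma soleus and of Chrna1, Six4 and Myh3 in ERRbeta/ERRgamma soleus. There Six4 was at -0.35 and Mcm2 at 0.60 without knockout-labelled library 1, and Myh3 was at 1.58 without knockout-labelled library 3 and 1.66 without WT library 3. In the fit on the groups compared alone, none of these genes kept its call in ERRbeta/ERRgamma soleus.

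**Figure D4:**
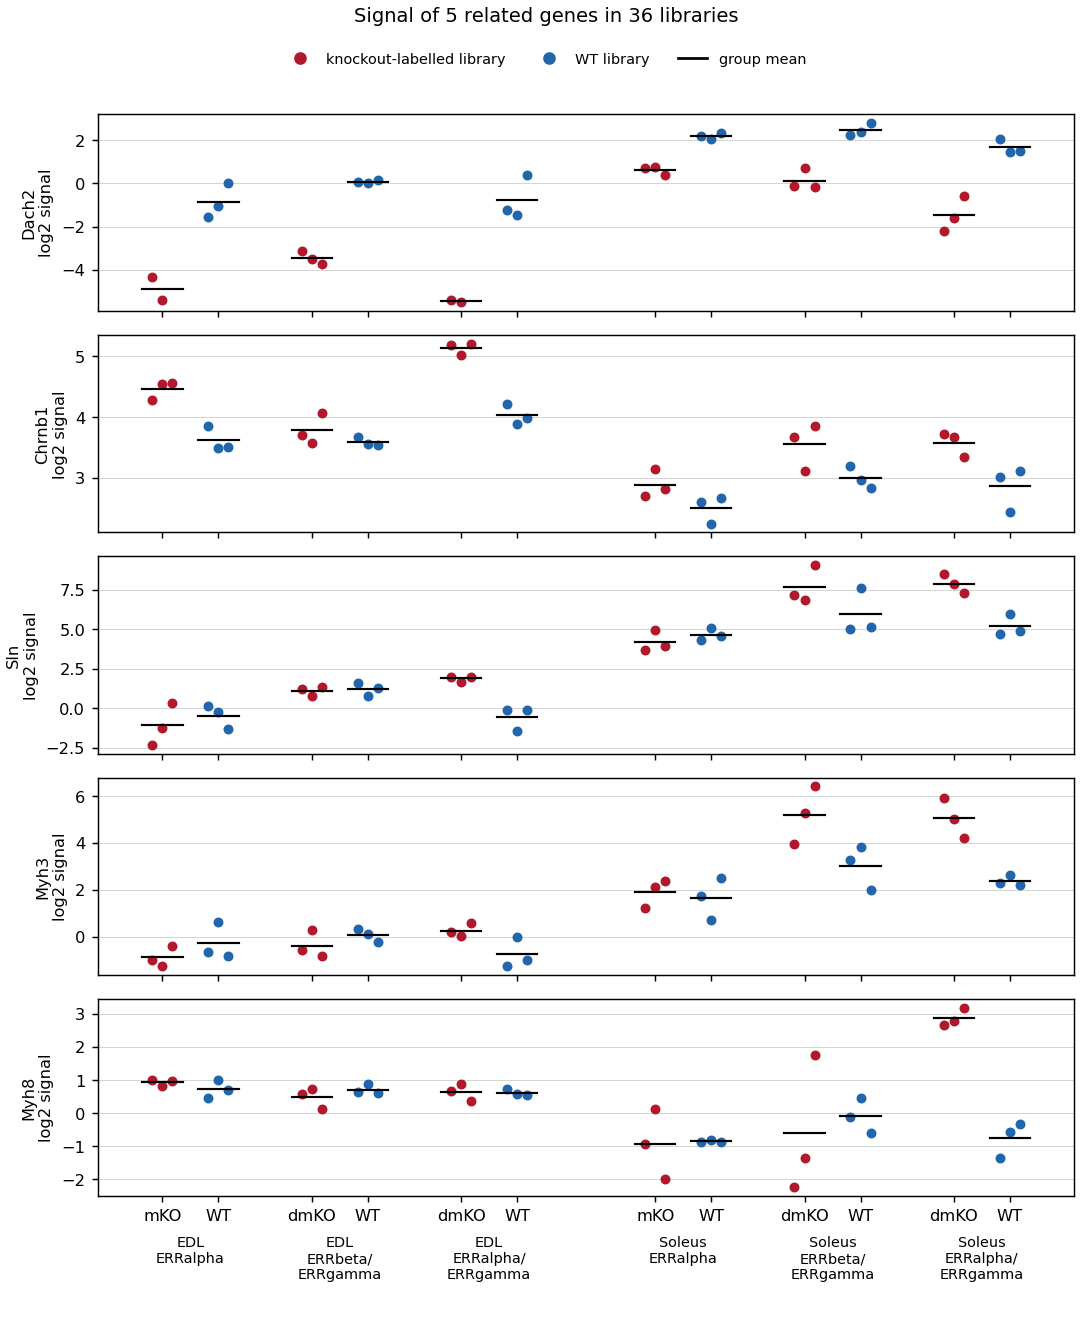
Log2 signal of Dach2, Chrnb1, Sln, Myh3 and Myh8 (vertical axes) in the libraries of every group. Knockout-labelled groups stand to the left of their WT littermates, with EDL and soleus apart. Points are libraries and bars are group means. Dach2 is lower in the knockout-labelled libraries with a value than in the WT libraries in every pair of groups. The share of all genes with this order was not computed. It has no value in library 3 of knockout-labelled EDL of the ERRalpha and ERRalpha/ERRgamma classes.

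Markers of fibres and of other cell types are given beside these results. In the ERRalpha/ERRgamma class 18.1% of all genes tested were called in EDL and 12.7% in soleus. The summed muscle fibre markers were 25684 to 26398 in knockout-labelled soleus of the ERRalpha/ERRgamma class and 28462 to 29324 in WT soleus, without overlap, with 1 of 8 called higher and 2 lower. In EDL of that class they were 24929 to 25569 in knockout-labelled libraries and 25343 to 27927 in WT libraries, with 3 of 8 markers higher and 1 lower by the test. In soleus of the ERRalpha/ERRgamma class, where Myog and Myf6 rose, the summed leukocyte markers were 69.5 to 84.9 in knockout-labelled libraries and 37.6 to 57.4 in WT libraries, with 0 of 6 markers tested called. The summed fibroblast markers were 479 to 588 in these knockout-labelled libraries and 245 to 503 in the WT libraries, and in EDL of the class they were 307 to 411 in knockout-labelled and 233 to 324 in WT libraries, with 0 of 7 called in either muscle. Of 7 endothelial markers tested in this class, 2 were called lower in EDL and 1 in soleus. Of 6 Schwann cell markers, 1 was called lower in soleus of the class. Their summed level there was 21.6 to 31.4 in knockout-labelled libraries and 18.8 to 138 in WT libraries. The endothelial and Schwann cell counts in soleus are near the share of all genes called. Of the 8 leukocyte markers, Cd3e had no value in the knockout-labelled and WT groups of the ERRbeta/ERRgamma class in either muscle. The part of fibres and of these cells in the changes of the members was not tested.

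Across the 36 libraries the members did not move as a block. As a description over libraries that share muscle, class and scaling, Pearson's r was 0.48 between Myod1 and Myf6, 0.46 between Myf5 and Myog, 0.43 between Pax7 and Myog and -0.37 between Myod1 and Myog. Taken within groups, on deviations from the group means, the last pair turned to 0.41, Pax7 and Myog to -0.40, and Pax7 and Myf6 stood at -0.56. Myog and Myf6 had an r of 0.28 over libraries and 0.41 within groups. The genes most like each member over the 36 libraries were also listed. For Myog they were Ube2g2 (0.88), Cct8, Cryab, Hspb6 and Anapc7 (0.86 to 0.87), for Myf6 Hspb8 (0.84), Irgm2, Stx4a, Tiam1 and Gamt, and for Myod1 Obsl1, Aurka (0.88), Ncdn, Tpbgl and Mical2. For Pax7 they included Jup (0.82), Hdac5, Car3 and Bri3, and for Myf5, with the lowest r of the 5 members, Med13, Rcor1 (0.67), Lcor, Dmxl1 and Yipf6 (0.65).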

How the data were processed

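Per the labels' protocols, directional libraries were made from 400 ng of soleus or EDL RNA and amplified for 10 PCR cycles. The authors deposited log2 signals, logged and quantile normalised per the file name. Partek 6.6, GRCm38.p6 and mm10 come from the submitters' processing notes. Aligner, counting method and original unit: not given in the sources used here. Base 2 was read from the values, since in 1440 genes 2533 values stood 0.9 to 1.1 over the lowest value of their gene and only 49 stood 0.59 to 0.79 over it. Read depth is unknown, so no counting error is given. The table lists 45802 names, of which 27904 are without a value; 27 names had become dates and were left out.

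Columns were assigned by muscle, class letters and the marks FXp and FX-. Since no class letter marks the ERRalpha columns of EDL, these were placed by the animal number shared with a soleus column. Genes were kept where the mean, with missing values at the table's lowest value (-8.21), exceeded the 25th percentile (-5.24): 13404 of 17873, 88.9% with all values. Missing values stayed missing in the tests. limma 3.58.1 in R 4.3.3 was fitted with an intensity trend on 36 libraries with 1 mean per group and 13261 to 13385 genes tested per contrast; the procedure was tested on simulated data. The 22 animals include 14 with both muscles, and the correlation of deviations between the muscles of an animal was over 0.1 in 7 of 14 pairs. The main fit took these libraries as separate samples, and a fit with the animal as a replicate block is given below. Named were the members, the receptor genes, up to 3 called genes of lowest p per list and comparison, and the 5 genes with the highest r to each member (1 of them is not reported here). Other values of genes so named were given too. The members and lists were chosen with earlier results of these data known. Motifs were searched by letters on both strands.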

Additional observations from a re-analysis of the deposited data

Results flagged for a closer look

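The change of Myog in EDL differed between deletion classes by a test of the difference itself. It was 2.20 ± 0.43 in the ERRalpha/ERRgamma class and -0.10 ± 0.43 in the ERRbeta/ERRgamma class, a difference of 2.30 ± 0.61 on the log2 scale (limma, Benjamini-Hochberg adjusted p = 0.0149). The WT groups of the classes also differed, with a mean of -1.02 in the ERRalpha/ERRgamma class and 0.12 in the ERRbeta/ERRgamma class, and the ranges of these WT groups overlapped. The part of the WT level in the difference was not tested.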

How the results depend on the processing

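Over 70 member results and 1130 alternatives, direction and side of the threshold were kept in 1068, the call was lost in 18 and gained in 5, and the sign turned in 39, all in 13 changes that were not called, 38 of them with 1 library left out. For the called genes named from lists, 380 alternatives kept the call and 88 lost it. Read depth is unknown, and 3 libraries per group limit every comparison.

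With only the groups compared in the fit, the count of called genes was 240 in EDL and 2 in soleus of the ERRalpha class (436 and 95 in the fit on all libraries), 4 in EDL and 4 in soleus of the ERRbeta/ERRgamma class (29 and 897), 1 and 0 for soleus minus EDL in these classes (2 and 28) and 29 for the ERRalpha/ERRgamma minus the ERRbeta/ERRgamma class in soleus (161). The same fit left Myf6 in soleus of the ERRbeta/ERRgamma class at 0.76 (limma, adjusted p = 0.23) and the Myog class difference in EDL at 2.30 (adjusted p = 0.0916). Fewer samples enter these fits. Without an intensity trend, Myf6 in soleus of the ERRalpha/ERRgamma class was at 0.52 (adjusted p = 0.0508), and the soleus minus EDL counts were 1 and 14. After recentring it was at 0.45. For soleus minus EDL in the ERRalpha class, missing values at the lowest value gave 5 and a pseudocount of 0.1 gave 1. The cause of these shifts was not tested.

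Leaving out 1 library gave counts of 225 to 303 and 25 to 73 in EDL and soleus of the ERRalpha class, 11 to 25 and 396 to 2139 in EDL and soleus of the ERRbeta/ERRgamma class, 1 to 5 and 1 to 521 for soleus minus EDL in these classes, and 122 to 323 for the class difference in soleus. It gave 0.56 to 0.93 for Myf6 in soleus of the ERRbeta/ERRgamma class, 1.33 to 1.52 for Myog and 0.47 to 0.55 for Myf6 in soleus of the ERRalpha/ERRgamma class, and 1.75 to 2.84 for the Myog class difference in EDL.

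Where the sign turned, leaving out 1 library gave, in the ERRbeta/ERRgamma class, -0.12 to 0.82 for Pax7 and -0.64 to 0.25 for Myog in EDL, and -0.14 to 0.57 for Pax7 and -0.19 to 0.67 for Myod1 in soleus. It gave -0.28 to 0.43 for Myod1 in soleus of the ERRalpha class. For soleus minus EDL it gave -0.29 to 0.17 for Pax7 and -0.53 to 0.54 for Myf5 in the ERRalpha class, -0.65 to 0.33 for Pax7 and -0.015 to 0.85 for Myod1 in the ERRbeta/ERRgamma class, and -0.24 to 0.29 for Myod1 in the ERRalpha/ERRgamma class. For the ERRalpha/ERRgamma class minus another it gave, in EDL, -0.92 to 0.14 for Myf5 against the ERRalpha class and -0.048 to 0.70 against the ERRbeta/ERRgamma class, and in soleus -0.18 to 0.68 for Myod1 against the ERRbeta/ERRgamma class.

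Between the muscles of an animal, deviations from the group means had correlations of -0.068 to 0.324, with a consensus of 0.137. The main fit did not use this pairing. With the animal as a replicate block, 7496 genes were called between WT muscles, and 9, 108 and 320 for soleus minus EDL in the ERRalpha, ERRbeta/ERRgamma and ERRalpha/ERRgamma classes, against 7220, 2, 28 and 276 without the block. The block turned Myod1 for soleus minus EDL in the ERRalpha/ERRgamma class to -0.043. No paired analysis was possible between knockout-labelled and WT libraries because the columns carry no replicate numbers and no animal is in both groups.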
